A study of Mus musculus with 4 samples.

Results

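The nuclear-encoded subunits of the mitochondrial respiratory chain were compared between wild-type and Tip110-/- mouse blastocyst outgrowths on whole-transcript arrays. Members were taken by gene symbol: every array row with a single symbol that names a subunit of complex I (the Nduf genes), complex II (Sdha to Sdhd), complex III (Cyc1 and the Uqcr genes), complex IV (the Cox4 to Cox8 genes) or complex V (the Atp5 genes). These were 84 of the 30142 genes tested, with 35 in complex I, 4 in complex II, 9 in complex III, 18 in complex IV and 18 in complex V. The members were taken by name and not by how they differed, although the set was chosen with earlier results of these data known. A further 4 rows carried a member's symbol beside another symbol and were left out, so Ndufb4 and Ndufa11 were not analysed here, and neither was Atp5c1. The symbol rule also takes in names that are not structural subunits. Atp5sl, now named Dmac2, is an assembly factor of complex I, Cox7a2l helps complexes III and IV to join, and Ndufa4, grouped here by its name, is a subunit of complex IV.

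Outgrowths are formed by blastocysts that settle on the culture dish, where trophoblast cells spread out around the inner cell mass. The embryos came from Tip110+/- intercrosses at 3.5 dpc, and each was kept alone for 4 to 6 days in stem cell medium made with a serum replacement (KOSR-ESCM). The 4 arrays held 2 wild-type and 2 Tip110-/- samples, and no sample of either genotype was treated. For both genotypes, replicate 1 pooled 3 outgrowths, whereas replicate 2 came from 1 outgrowth. Tip110 is the protein of Sart3, a factor that re-forms the U4/U6 particle for splicing. The labels give the genotype without naming the mutant allele.

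The respiratory chain sits in the inner mitochondrial membrane. Complexes I and II pass electrons from NADH and succinate to ubiquinone, complex III passes them on to cytochrome c, and complex IV reduces oxygen. Complexes I, III and IV pump protons, and complex V, the ATP synthase, uses the gradient to make ATP. Most subunits are encoded in the nucleus and the remainder in mitochondrial DNA, so that every complex except complex II needs both genomes. Around the blastocyst stage trophectoderm is known for active mitochondria, while pluripotent cells lean on glycolysis.

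Promoters were read from RefSeq (GRCm38.p6) for the 67 members present in the promoter table, from 250 bases before to 50 bases after the transcription start. The stretches below run 5′ to 3′ along the gene's strand and stop at base 30 from the start. Cox7a1 is shown because it had the largest difference among the members, Cox7a2 because it is the widely expressed counterpart of Cox7a1, Ndufv1 because it differed most in complex I, and Uqcr11 and Ndufa6 because they hold motifs of factors known to drive respiratory genes. Capitals mark exact matches on either strand to GCGCATGC (NRF1), CCGGAAGT (the ETS family, which includes GABPA) or AAGATGGCG (YY1); the first motif overlaps its own reverse complement, and such overlaps were counted as 1 gene.
Cox7a1 (chr7:30183921-30184200, plus strand): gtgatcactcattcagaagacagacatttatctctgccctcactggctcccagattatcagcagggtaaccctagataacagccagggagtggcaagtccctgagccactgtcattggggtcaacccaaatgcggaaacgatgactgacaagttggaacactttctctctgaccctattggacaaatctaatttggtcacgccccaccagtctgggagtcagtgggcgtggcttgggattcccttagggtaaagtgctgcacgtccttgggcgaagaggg
Cox7a2 (chr9:79759824-79760103, minus strand): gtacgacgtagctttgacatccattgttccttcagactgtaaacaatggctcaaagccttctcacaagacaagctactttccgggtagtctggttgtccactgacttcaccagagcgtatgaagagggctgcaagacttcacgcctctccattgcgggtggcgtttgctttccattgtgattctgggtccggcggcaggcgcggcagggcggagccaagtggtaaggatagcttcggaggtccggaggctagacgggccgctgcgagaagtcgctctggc
Ndufv1 (chr19:4012726-4013005, minus strand): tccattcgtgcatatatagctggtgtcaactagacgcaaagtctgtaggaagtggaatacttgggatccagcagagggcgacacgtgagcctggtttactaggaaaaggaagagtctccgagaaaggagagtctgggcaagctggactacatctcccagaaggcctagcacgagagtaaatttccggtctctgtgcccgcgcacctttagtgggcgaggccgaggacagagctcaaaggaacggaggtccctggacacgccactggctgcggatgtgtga
Uqcr11 (chr10:80406792-80407071, minus strand): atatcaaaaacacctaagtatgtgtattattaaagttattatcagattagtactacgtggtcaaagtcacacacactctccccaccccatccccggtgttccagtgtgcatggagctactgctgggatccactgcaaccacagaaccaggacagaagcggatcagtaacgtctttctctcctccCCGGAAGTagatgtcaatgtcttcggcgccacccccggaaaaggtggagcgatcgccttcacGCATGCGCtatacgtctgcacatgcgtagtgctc
Ndufa6 (chr15:82354262-82354541, minus strand): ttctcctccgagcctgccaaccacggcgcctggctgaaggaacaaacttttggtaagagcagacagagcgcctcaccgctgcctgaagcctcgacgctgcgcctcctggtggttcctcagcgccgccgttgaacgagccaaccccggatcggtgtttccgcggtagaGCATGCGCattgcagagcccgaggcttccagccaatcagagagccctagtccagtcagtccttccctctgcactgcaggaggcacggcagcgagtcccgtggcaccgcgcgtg

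Over the whole windows, the NRF1 letters were found in 9 of 67 members (13.4%) against 3.05% of all 27025 genes in the table and 4.14% of the tested protein-coding genes. The YY1 letters were found in 8 members (11.9%), against 1.64% of all genes and 2.24% of the protein-coding genes. The ETS letters were found in 5 members (7.46%), against 4.31% and 5.89%. Any of the 3 motifs was present in 21 members (31.3%), against 8.47% of all genes and 11.5% of the protein-coding genes. In complex I the YY1 letters were the most frequent, in 5 of 31 genes. They began between bases 23 and 36 from the start in Ndufc1, Ndufa9, Ndufs7, Ndufs6 and Ndufs4. The Cox7a1 and Ndufv1 windows held none of the 3, and the printed Cox7a1 stretch had 6 CpG dinucleotides where that of Cox7a2 had 18. These matches describe letters and were not tested against the expression differences.

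Signal is given as deposited, on the log2 scale, and differences are Tip110-/- minus wild-type, so that 1 unit is a doubling. Over all genes the arrays had median signals of 4.21 and 4.22 (wild-type) against 4.45 and 4.32 (Tip110-/-). The median difference over all genes was 0.15, and medians of the members are therefore also given relative to it. RNA per outgrowth was 249 and 178 pg for wild-type against 55 and 144 pg for Tip110-/-, lower in both Tip110-/- samples, so that RNA amount and genotype cannot be told apart. Sart3 itself was at 4.94 and 5.98 against 4.28 and 4.54 in Tip110-/-, and whether its probes lie in the deleted part is not given in the sources used here. All of these values lie under 6.12, the highest background value of any array (defined below). Only the single wild-type outgrowth was above the highest background value of its own array, 5.80. Epiblast markers were lower in Tip110-/- at an unadjusted p under 0.05 in limma for 9 of 10 genes, and their summed signal was 15.01 and 15.82 for wild-type against 11.24 and 9.83 in Tip110-/-. Of 7 giant cell and placenta markers 3 were higher (Cts7, Prl5a1 and Psg17), with summed signals of 17.47 and 16.72 against 17.63 and 19.06. Psg17 was under 6.12 in every array, and Prl2c2, which did not pass, held most of these sums. Among all genes 3.67% were lower and 8.99% higher by this mark. Of 7 trophoblast progenitor markers 1 was higher (Gata2), with summed signals of 17.80 and 17.27 against 17.79 and 18.54. All 8 fibroblast, all 6 uterine and all 7 primitive endoderm markers had mean signals under 6.12, the highest value of a probe set for background (antigenomic sequence), although the endoderm gene Cubn reached 8.29 in the wild-type pool; 0 of these 21 passed. Of 4 blood markers 0 passed, and the macrophage gene Cd68 was above that value in every array, at 10.39 and 7.69 against 10.09 and 10.42. In whole outgrowths, fewer cells of a type and less RNA per cell cannot be told apart. The part of the shift in cell markers in the differences below was not tested.

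Among the respiratory chain genes Cox7a1 had by far the largest negative difference, with Cox7b2, Ndufv1, Cyc1 and Ndufs4 next. In limma 0 of 84 members passed an adjusted p of 0.05, with a smallest adjusted p of 0.287, and 0 of the 30142 genes did, while 3817 had an unadjusted p under 0.05. At an unadjusted p under 0.05, 3 members were lower, namely Cox7a1, Ndufv1 and Cyc1, and 0 were higher. Among all genes 3.67% were lower and 8.99% higher by this mark, and among the 3525 genes with a mean signal between the lower and upper quartile of the members, 8.18 to 12.85 (some members included), 6.64% were lower and 3.38% higher. The members' share of lower genes, 3.57%, was thus near that of all genes and below that of the genes of like signal. With 0 members higher, their share of higher genes was below both. These shares rest on 3 and 0 of 84 genes. Without wild-type replicate 1 the members passing this mark were Cox7a1 (lower) and Atp5l, Atp5mpl and Uqcrq (higher). In 62 of 84 members the difference was smaller than 0.5 in either direction, as in 22698 of all 30142 genes and 1608 of the 3525 genes of like signal. The members' share was near that of all genes and above that of the genes of like signal. Of the members, 5 were lower by at least 1 and 2 were higher by at least 1, against 5.56% and 4.53% of all genes and 13.9% and 15.5% of the genes of like signal.

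The median difference over the members was -0.11, or -0.26 relative to all genes, with quartiles of -0.42 and 0.16. The genes of like signal had a median of -0.002, which is -0.15 relative to all genes. The members' value moved with single arrays, to -0.08 without wild-type replicate 1 and to -0.53 without wild-type replicate 2, and it was -0.08 with quantile normalization and -0.10 with cyclic loess. Both Tip110-/- arrays lay below both wild-type arrays for 21 of 84 members and above both for 7 (8.33%), while the groups overlapped for 56. The same held for 12.9% and 39.9% of all genes, and for 24.3% and 20.2% of the genes of like signal. The plot by complex shows the members clustered near 0, with Cox7a1 far below the others.

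**Figure D1:**
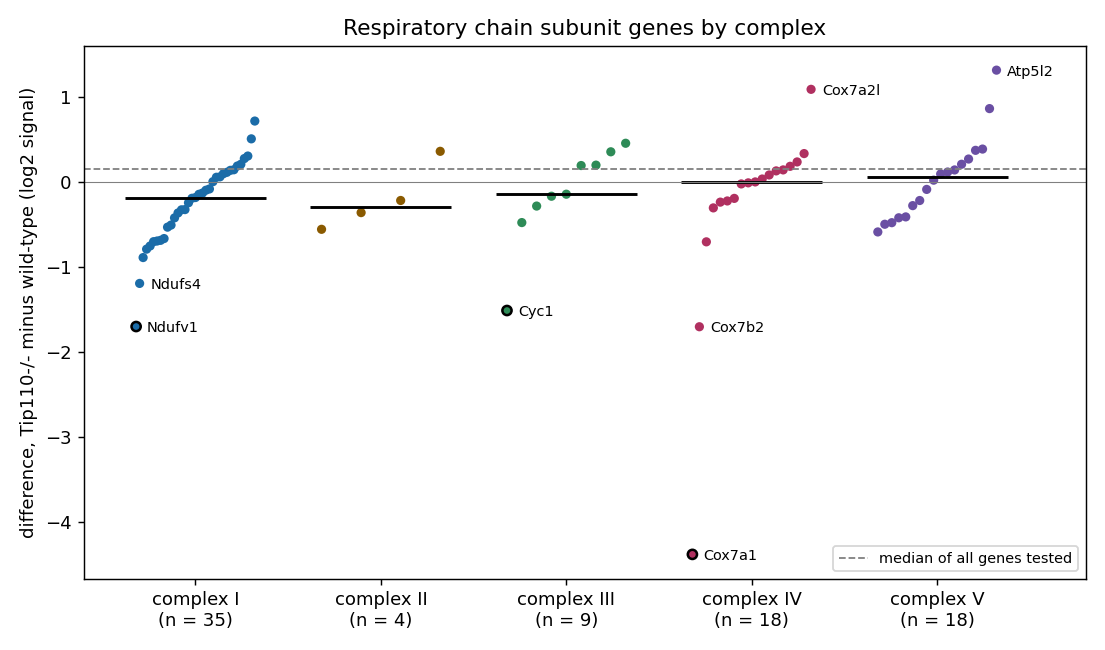
Difference between genotypes for each of the 84 members (Tip110-/- minus wild-type, log2 signal, means of 2 arrays each), sorted within complexes I to V. Black bars are medians of a complex, the dashed line is the median of all genes (0.15), points ringed in black had an unadjusted p under 0.05 in limma, and names mark differences of at least 1; Cox7a1 lies at -4.38 while 62 members lie within 0.5 of 0.

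Much of the variation among the members lay within the wild-type group. The pooled wild-type array was above the single one for 75 of 84 members, by a median of 0.50, and for all 35 members of complex I, by a median of 0.61. Among all genes the wild-type pool was above the single outgrowth for 14707 of 30142 (median -0.01), and among the genes of like signal for 2031 of 3525 (median 0.15). In Tip110-/- the pool was above the single outgrowth for 42 of 84 members, with a median of 0.00. Among the genes of like signal the Tip110-/- pool was above for 1146 of 3525, with a median of -0.33, a wider gap than in wild-type. For 58 members the gap between the wild-type arrays was larger than the difference between genotypes, as for 12588 of all genes and 1742 of the genes of like signal.

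The comparison came out differently in the pools and in the single outgrowths, for the members and for the genes of like signal. Set against the wild-type pool, the Tip110-/- pool was lower for 64 of 84 members, with a median of -0.36, and for 2285 of 3525 genes of like signal, with a median of -0.30. Set against the single wild-type outgrowth, the single Tip110-/- outgrowth was lower for 32 members, with a median of 0.20, and for 1412 genes of like signal, with a median of 0.27. Both comparisons pointed down for 27 members, up for 15, and in opposite directions for 42, the last also for 1485 genes of like signal and for 10538 of all genes. Each of these sets 1 array against 1, so the difference between them was not tested. The plot of deviations by array shows the wild-type pool above and the single wild-type outgrowth below in complexes I, II, III and V.

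**Figure D2:**
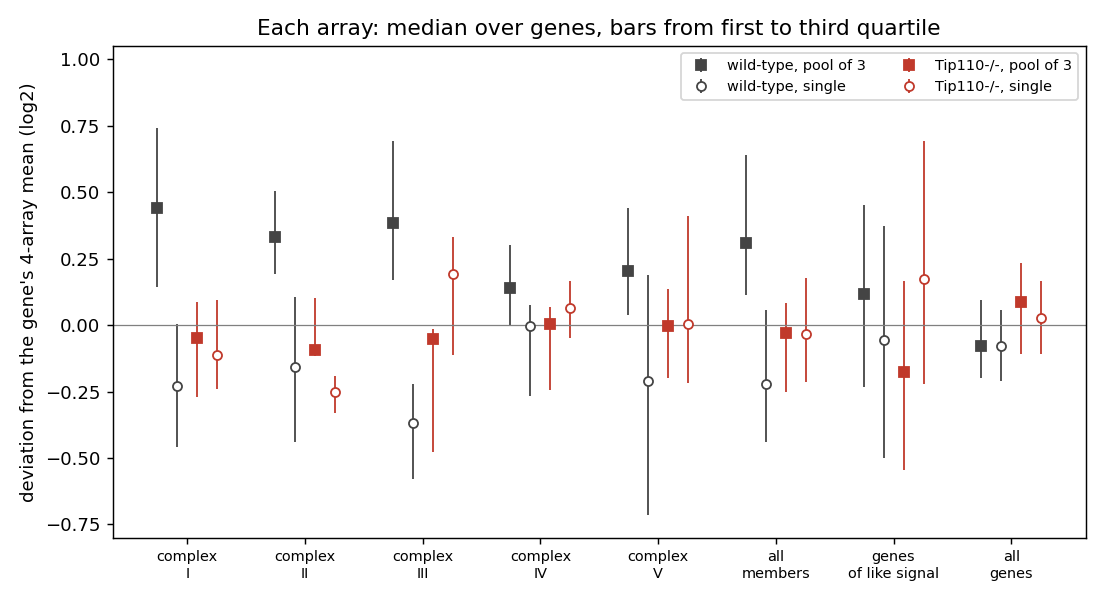
Deviation of each array from the gene's mean over the 4 arrays (log2), as the median over the genes of a set with bars from the first to the third quartile. Squares are pools of 3 outgrowths and circles single outgrowths, grey for wild-type and red for Tip110-/-; over all members the medians are 0.31 and -0.22 for wild-type against -0.03 and -0.03 for Tip110-/-.

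Complex I, the NADH dehydrogenase, had a median difference of -0.18, which is -0.33 relative to all genes (range -0.07 to -0.64 with 1 array left out in turn, -0.12 with quantile normalization and -0.13 with cyclic loess). Both Tip110-/- arrays were below both wild-type arrays for 9 of 35 genes (25.7%) and above them for 1 (2.86%). The shares were 12.9% and 39.9% over all genes, and 24.3% and 20.2% over the genes of like signal. The share of lower genes in complex I was thus near that of the genes of like signal. Among its 6 measured core subunits, the conserved proteins that carry the flavin and the iron-sulfur clusters, 5 had negative differences and 4 had no overlap between groups, with a median of -0.78 relative to all genes; with 1 array left out it ran from -0.42 to -1.01. The 29 accessory genes had a median of -0.28 relative to all genes, which became 0.05 without wild-type replicate 1. The difference between core and accessory genes was not tested.

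Ndufv1 carries the flavin site where NADH is oxidised. Its signal was 10.82 and 10.40 for wild-type against 9.37 and 8.45 for Tip110-/-, means of 10.61 ± 0.30 and 8.91 ± 0.65 (SD, n = 2). The groups did not overlap, and the difference of -1.70 ± 0.60 (SE) had an unadjusted p of 0.0353 and an adjusted p of 0.378 in limma. It no longer had a p under 0.05 without wild-type replicate 1 (0.128), wild-type replicate 2 (0.0703) or Tip110-/- replicate 2 (0.147). Ndufs4, an accessory subunit whose loss causes Leigh-like disease in mice, was at 13.02 and 12.21 against 11.85 and 10.99. It too was lower in both Tip110-/- arrays, by a difference of -1.19 that did not pass (limma unadjusted p = 0.0933). For these 2 genes the pools and the singles differed alike, by -1.45 and -1.95 in Ndufv1 and by -1.16 and -1.22 in Ndufs4.

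The other core subunits of complex I were less uniform. Ndufs8, an iron-sulfur subunit, was at 11.57 and 10.36 against 10.26 and 10.17, a difference of -0.75 without overlap, in which the wild-type pool alone stood high. Ndufs7, which sits next to the ubiquinone site, was at 7.32 and 7.05 against 6.56 and 6.80. Ndufv2, the partner of Ndufv1, was at 10.81 and 10.47 against 10.39 and 10.24. These 3 were lower in both Tip110-/- arrays and none passed. Ndufs1, the largest subunit, was at 7.99 and 7.60 against 6.01 and 7.81, so that only the Tip110-/- pool was low. Without the single Tip110-/- outgrowth, Ndufs1 differed by -1.79, a value that rests on 1 Tip110-/- array. Ndufs3 was at 9.27 and 8.35 against 8.72 and 9.19 and the groups overlapped.

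Among the accessory subunits of complex I, most overlapped between groups. Ndufa10 was at 11.70 and 11.43 against 10.97 and 10.78 and Ndufc1, close to background, at 6.00 and 5.36 against 5.27 and 4.72, both without overlap and without passing. Ndufv3 differed by -0.79, Ndufa6 by -0.70, Ndufa3 by -0.66 and Ndufa13 by -0.53, each with overlapping arrays. In the other direction Ndufb3 differed by 0.72, Ndufs5 by 0.51 and Ndufc2 by 0.31. Ndufb3 was at 11.86 and 10.26 against 11.69 and 11.86, so that the single wild-type outgrowth alone stood low, while Ndufs5 was above both wild-type arrays in both Tip110-/- arrays (7.50 and 7.14 against 7.67 and 7.99). The remaining genes, among them the small membrane-arm subunits Ndufa1 and Ndufb6, lay between -0.42 and 0.28.

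Complex II, succinate dehydrogenase, is encoded wholly in the nucleus. Its median was -0.29, or -0.44 relative to all genes, over 4 genes. The latter was -0.18 without wild-type replicate 1 and -0.70 without wild-type replicate 2, and quantile and cyclic loess normalization gave -0.23 and -0.25. Sdha, the flavoprotein that oxidises succinate, was at 10.07 and 9.69 for wild-type against 9.52 and 9.12 for Tip110-/-. The membrane anchor Sdhc, near background, was at 5.98 and 5.94 against 5.64 and 5.56. Both were lower in both Tip110-/- arrays, by -0.56 and -0.36, and neither passed. The iron-sulfur subunit Sdhb was at 10.90 and 9.87 against 10.17 and 10.17, and the other anchor, Sdhd, at 9.97 and 9.26 against 10.44 and 9.52. In these 2 the groups overlapped, and Sdhd had a positive difference of 0.36.

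In complex III, Cyc1 stood apart from the other 8 genes. Cyc1 encodes cytochrome c1, the haem protein that hands electrons to cytochrome c. Its signal was 13.00 and 12.35 for wild-type against 11.45 and 10.89 for Tip110-/-, means of 12.68 ± 0.46 and 11.17 ± 0.40 (SD, n = 2). The groups did not overlap, and the difference of -1.51 ± 0.52 (SE) had an unadjusted p of 0.0336 and an adjusted p of 0.373 in limma. The pools differed by -1.56 and the single outgrowths by -1.47. Its p was over 0.05 without wild-type replicate 1 (0.143), Tip110-/- replicate 1 (0.0519) or Tip110-/- replicate 2 (0.125), and with the replicate number as a block (0.0528).

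No other complex III gene separated the genotypes. The Rieske iron-sulfur protein Uqcrfs1 was at 8.98 and 8.23 against 9.16 and 8.97, the core protein Uqcrc1 at 14.60 and 13.79 against 13.44 and 14.38, and its partner Uqcrc2 at 11.59 and 11.78 against 11.59 and 11.45. All 3 overlapped. Of the small subunits, Uqcr11 differed by -0.48, Uqcrb by -0.14, Uqcr10 by 0.20, the hinge protein Uqcrh by 0.20 and Uqcrq by 0.36. In Uqcr11, Uqcrc1, Uqcr10, Uqcrh and Uqcrq the wild-type pool was above its single outgrowth and the Tip110-/- pool below its own, and for Uqcrq the pools differed by -0.74 and the singles by 1.46. The median of complex III was -0.14, or -0.29 relative to all genes. Relative to all genes it had the opposite sign without wild-type replicate 1 (0.03) and without Tip110-/- replicate 1 (0.09), was -0.01 with quantile normalization and -0.07 with cyclic loess, and was -0.59 without wild-type replicate 2.

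Complex IV, cytochrome c oxidase, held the largest difference of all 84 genes, in an isoform. Several of its subunits have a widely expressed form and a form restricted to a few tissues. Cox7a1, the form known from heart and skeletal muscle, had signals of 10.24 and 9.25 for wild-type against 5.85 and 4.88 for Tip110-/-, means of 9.74 ± 0.70 and 5.36 ± 0.68 (SD, n = 2). It was well above background in both wild-type outgrowth samples. In both Tip110-/- samples it was under 6.12, the highest background value of any array, which came from the wild-type pool. It was still above the highest background values of the Tip110-/- arrays themselves, 4.78 and 4.81, narrowly so in the single outgrowth. The difference was -4.38 ± 0.60 (SE), with an unadjusted p of 0.000746 and an adjusted p of 0.287 in limma. It was -4.39 between the pools and -4.37 between the single outgrowths, and with 1 array left out in turn it ran from -3.89 to -4.88. The widely expressed counterpart Cox7a2 was at 17.02 and 16.49 against 16.87 and 16.90, with overlapping groups and a difference of 0.13. Epiblast markers were lower in the same arrays, as given above, and their part in the Cox7a1 difference was not tested.

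**Figure D3:**
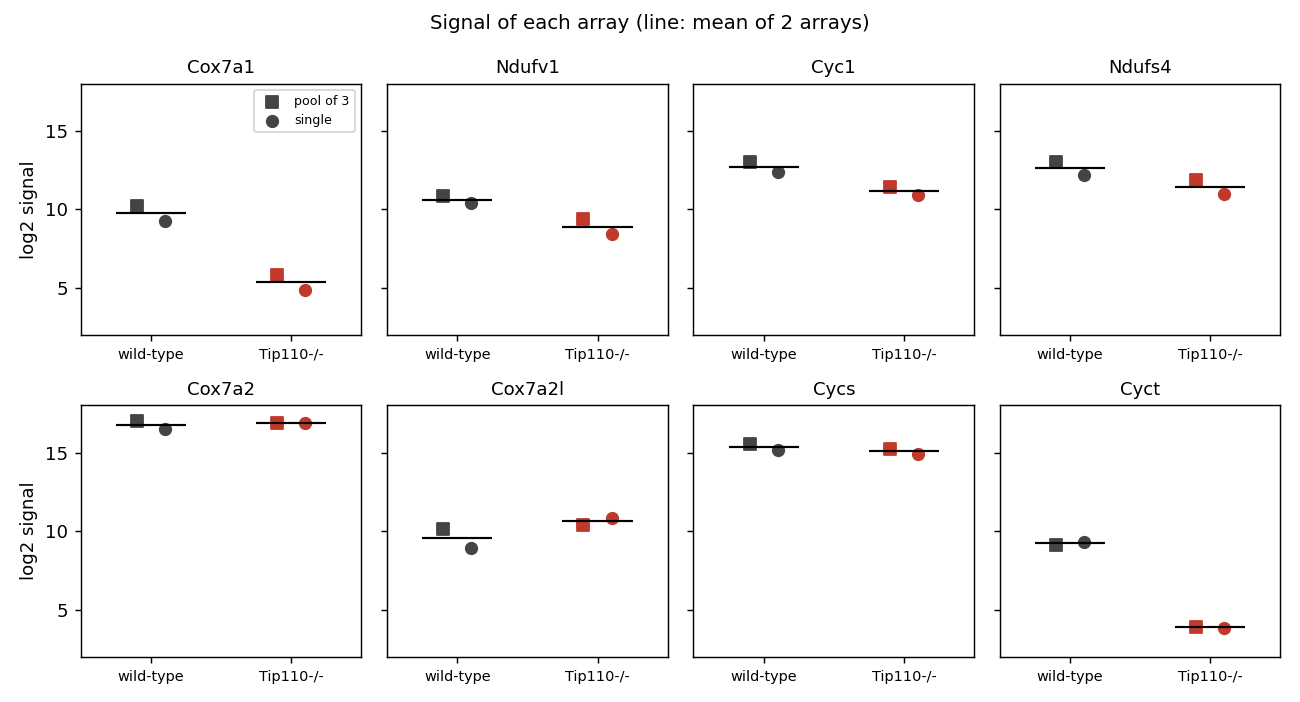
Log2 signal in each of the 4 arrays for 6 members and for the cytochrome c genes Cycs and Cyct (squares: pools of 3 outgrowths, circles: single outgrowths, lines: mean of 2 arrays). Cox7a1 and Cyct are separated widely between genotypes, Ndufv1, Cyc1 and Ndufs4 by less, and Cox7a2 and Cycs lie at like heights in all arrays.

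Of the other 7 restricted isoforms 0 passed. The testis forms Cox6b2 and Cox7b2 were above background in wild-type as well. Cox6b2 was at 9.51 and 9.25 against 8.42 and 8.93, lower in both Tip110-/- arrays by -0.70 without passing. Cox7b2 was at 9.39 and 8.31 against 5.34 and 8.95, so that only the Tip110-/- pool was low (-4.04 between the pools, 0.64 between the single outgrowths). Its difference of -1.70 was within the spread (limma unadjusted p = 0.237). Without Tip110-/- replicate 2 this difference was -3.51, a value that rests on 1 Tip110-/- array. Cox8b, Cox6a2, Cox4i2, Cox8c and Ndufa4l2, forms of muscle, lung, testis or hypoxic cells, stayed under the highest background value in all arrays, wild-type included, between 2.84 and 4.56, so that these values give only a bound. Their widely expressed counterparts Cox8a, Cox6a1, Cox4i1, Cox6b1, Cox7b and Ndufa4 differed by 0.34, -0.30, -0.19, 0.24, -0.02 and -0.36, none of them passing; Cox8a was above and Cox4i1 below in both Tip110-/- arrays without overlap.

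The remaining complex IV genes differed little, apart from Cox7a2l. Cox5a, which binds regulators of the enzyme, was at 15.54 and 15.53 against 15.41 and 15.21, lower in both Tip110-/- arrays by -0.22. Cox5b differed by 0.19, Cox7c by -0.24 and Cox6c by -0.01. Cox7a2l was at 10.12 and 8.95 against 10.39 and 10.86, a positive difference of 1.09 ± 0.64 (SE) without overlap that did not pass (limma adjusted p = 0.450). It was small between the pools (0.27) and larger between the single outgrowths (1.91). The median of complex IV was -0.003, or -0.15 relative to all genes, and -0.16 relative to all genes without the restricted isoforms. Relative to all genes it was -0.03 without Tip110-/- replicate 1, -0.24 without wild-type replicate 2, -0.07 with quantile normalization, -0.09 with cyclic loess and -0.05 among genes above the median level.

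In complex V, the ATP synthase, differences ran both ways and none passed. The F1 head holds the catalytic sites. Its alpha subunit Atp5a1 was at 13.31 and 13.32 against 12.81 and 12.83, a difference of -0.50 with very little spread in either group (SD 0.010 and 0.011, n = 2). This difference had an unadjusted p of 0.248 in limma, which borrows spread from genes of like signal, and of 0.0197 without the intensity trend. The catalytic beta subunit Atp5b was at 13.19 and 13.27 against 12.33 and 13.29, so that only the Tip110-/- pool was low. Atp5d and Atp5e of the central stalk were at 7.997 and 7.61 against 7.78 and 8.60, and at 9.08 and 7.17 against 7.71 and 8.78, with overlap in both.

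The 3 genes of the c-ring, which turns as protons pass, all had negative differences. Atp5g1 was at 8.82 and 8.12 against 7.92 and 7.84, Atp5g2 at 12.88 and 12.84 against 12.65 and 12.11, and Atp5g3 at 11.59 and 10.84 against 10.95 and 11.04. Atp5g1 and Atp5g2 did not overlap between groups. Of the 9 genes of the peripheral stalk and membrane part, Atp5h differed by -0.41 and Atp5o by -0.28, both without overlap, and the other 7 were positive. Atp5l was at 15.52 and 14.58 against 15.59 and 16.24, a difference of 0.87 without overlap (limma unadjusted p = 0.0977), and its copy Atp5l2 at 13.05 and 11.75 against 13.08 and 14.36, a difference of 1.32. Atp5l had an unadjusted p in limma of 0.0234 with quantile normalization and 0.0285 with cyclic loess. Without wild-type replicate 1 its difference was 1.33, a value that rests on 1 wild-type array. In Atp5l and Atp5l2 the pools were nearly level (0.07 and 0.03) and the single outgrowths apart (1.66 and 2.61).

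Atp5j2 differed by 0.37, Atp5k by 0.27, Atp5f1 (now Atp5pb) by 0.21, Atp5md by 0.14, Atp5mpl by 0.10 and Atp5j, near background, by 0.02, while the assembly factor Atp5sl differed by -0.09. The median of complex V was 0.06, or -0.09 relative to all genes. The latter became positive with quantile normalization (0.11), cyclic loess (0.05), genes above the median level only (0.03) and without wild-type replicate 1 (0.01); it was -0.53 without wild-type replicate 2. The kept rows of Atp5g2 and Atp5l carry another chromosome number than the gene's own, and respiratory genes have many near-identical copies whose transcripts can reach the same probes, so these values are uncertain. The rows numbered for the gene's own chromosome differed by -0.59 for Atp5g2 and by 0.62 and 0.39 for Atp5l.

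**Figure D4:**
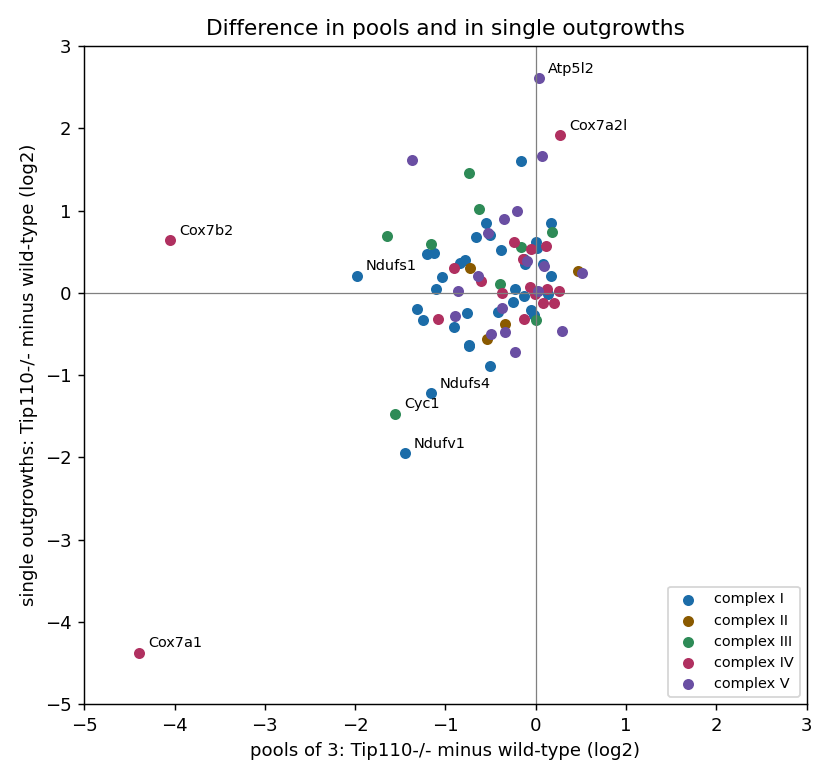
Difference between genotypes in the pools of 3 outgrowths (x axis) and in the single outgrowths (y axis) for the 84 members, in log2 signal, coloured by complex. Cox7a1, Ndufv1, Cyc1 and Ndufs4 lie low on both axes, while Cox7b2 and Ndufs1 are low only in the pools and Cox7a2l and Atp5l2 high mainly in the single outgrowths.

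Cytochrome c, the carrier between complexes III and IV, also has a widely expressed and a restricted form. Cyct, the testis form, was at 9.14 and 9.30 for wild-type against 3.92 and 3.82 for Tip110-/-, under the highest background value. Its difference of -5.35 ± 0.34 (SE) had an adjusted p of 0.154 in limma, the smallest value over all genes. The somatic form Cycs was at 15.54 and 15.13 against 15.25 and 14.90, a difference of -0.26. Of the other 11 measured genes in this list, which make or handle ubiquinone, Coq3 was lower (difference -1.45) and Coq9 higher (0.81) by the unadjusted mark, while 9 passed in neither direction.

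Assembly factors insert cofactors and join the subunits. Of 15 measured for complex I, 2 were lower and 0 higher by the unadjusted mark, with a median of -0.62 relative to all genes (range -0.28 to -0.83 with 1 array left out, and -0.34 with quantile normalization). Ndufaf7, a methyltransferase needed for early assembly, was near background, at 6.19 and 5.95 against 4.93 and 4.78. Tmem126b, of the membrane-arm assembly complex, was at 6.92 and 6.61 against 5.58 and 5.88. Neither passed when adjusted (limma adjusted p = 0.332 and 0.366). Of 16 for complex IV, 2 were lower and 0 higher, with a median of -0.58 relative to all genes (range -0.53 to -0.87 with 1 array left out, and -0.39 with quantile normalization). The shares of lower genes, 13.3% for complex I and 12.5% for complex IV, rest on 2 genes each. Among all genes 3.67% were lower by this mark, and among the genes of like signal 6.64%. Sco1, a copper chaperone of complex IV, was at 7.44 and 7.90 against 5.88 and 6.41. Lrpprc, which stabilises mitochondrial mRNAs, was at 6.34 and 7.40 against 4.96 and 4.89. Of the factors for complexes II, III and V, 4, 4 and 3 genes, 0 passed.

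Of 15 regulators of mitochondrial gene expression 0 passed. The transcription factor Nrf1 was at 7.23 and 7.78 against 7.08 and 7.14, its partner in respiratory promoters Gabpa at 7.30 and 7.75 against 7.35 and 7.54, Yy1 at 9.82 and 9.15 against 9.45 and 10.30, and the mitochondrial DNA packaging factor Tfam at 9.14 and 9.36 against 9.25 and 9.16. Of these 4, Nrf1 alone had groups that did not overlap. Over all 15, both Tip110-/- arrays lay below both wild-type arrays for 6 and above both for 2. Of all genes, 12.9% lay below and 39.9% above in this way, and of the genes of like signal 24.3% and 20.2%. The counts of the 15 regulators were not tested against these shares. Tfb1m had the largest difference, -2.53 (limma unadjusted p = 0.0607), at 6.75 and 9.73 against 6.16 and 5.27. This difference was -0.59 between the pools and -4.46 between the single outgrowths. Pprc1 differed by -0.92, Ssbp1 by -0.91 and Ppargc1b by 0.89, each without overlap. Of 15 genes of the tricarboxylic acid cycle 1 was lower by the unadjusted mark, the isocitrate dehydrogenase subunit Idh3g at -2.50. Of 15 genes of import and membrane organisation 1 was higher by it, the fusion protein Mfn2 at 1.57. Most of this second list leaned the other way, with 12 negative and 3 positive differences. Its median was -0.50 relative to all genes, and -0.32 with quantile normalization. Subunits encoded in mitochondrial DNA were not analysed here.

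Of 74 mitochondrial ribosomal protein genes 2 were lower and 0 higher at an unadjusted p under 0.05, with a median of -0.29 relative to all genes. With 1 array left out in turn the count of lower genes was 1 to 5, and it was 10 without the intensity trend. Leaving out wild-type replicate 1 gave a median of -0.105, leaving out wild-type replicate 2 gave -0.503, and quantile and cyclic loess normalization gave -0.06 and -0.08. Of 38 proteasome subunit genes 2 were lower and 0 higher, with a median of -0.37. The count of lower genes was 0 to 2 with 1 array left out and 0 with the replicate number as a block, while the median came to -0.24 without Tip110-/- replicate 1 and to -0.18 and -0.19 with quantile and cyclic loess normalization. The wild-type pool was above the single wild-type outgrowth for 61 of the 74 and for 24 of the 38. The shares of lower genes, 2.7% and 5.26%, stand beside 3.67% of all genes and 6.64% of the genes of like signal. No test of a difference between these sets was made.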

How the data were processed

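RNA of 4 outgrowth samples was measured on Affymetrix whole-transcript arrays; the sample labels state 144 pg of input and the series' design text 100 pg. The deposited table holds the authors' log2 signal for 72688 rows; the log base was inferred from the values. Expression Console and Transcriptome Analysis Console (Affymetrix) are listed without version in the submitters' processing notes; the sources used here do not give the normalization algorithm or the probes' genome build. Rows were named by the platform annotation: 30604 had 1 symbol and 2146 several. The row with the highest mean was kept per gene, with current symbols by Entrez ID for genes outside the member list, leaving 30142 genes.

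Each gene was fitted with limma 3.58.1 in R 4.3.3 (lmFit, eBayes with an intensity trend; genotype as the only term; no filter), two-sided, Benjamini-Hochberg adjusted over all genes at 0.05. The script was tested on simulated data. With 2 arrays a group an exact permutation test cannot go below 0.333, so none was used. The labels call the samples biological replicates, but nothing says whether they share a litter, and p-values measure only the spread between these samples. The number of arrays limits the precision. A background level was taken as the highest of 23 antigenomic rows in any array. Summed marker signals are log2 of summed linear values. The members, lists and tests were chosen with earlier results of these data known. Genes named were all members at an unadjusted p under 0.05, the 3 largest differences per direction in each complex, the core, catalytic, isoform and partner subunits, and up to 4 genes at an unadjusted p under 0.05 in each list of other pathway genes; regulators and further members were named after their values were seen. Joins used pandas 2.3.3 and plots matplotlib 3.10.9. Alternatives were quantile and cyclic loess normalization, centring, a filter on level, no trend, the replicate number as a block, averaging of rows of 1 gene, a narrower member list, each array left out and, chosen after seeing the data, the row numbered for the gene's own chromosome.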

Additional observations from a re-analysis of the deposited data

Results flagged for a closer look

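The median difference of a complex had opposite signs in the pools of 3 outgrowths and in the single outgrowths for 4 of the 5 complexes. In complex I it was -0.51 in the pools and 0.20 in the single outgrowths, in complex III -0.63 and 0.60, in complex IV -0.09 and 0.05, and in complex V -0.28 and 0.22. The genes of like signal, which include some members, also had opposite signs, with medians of -0.30 in the pools and 0.27 in the single outgrowths. Each value sets 1 Tip110-/- array against 1 wild-type array, and the difference between pools and singles was not tested. The wild-type pool was above the single wild-type outgrowth for 35 of 35, 8 of 9, 14 of 18 and 14 of 18 genes in these complexes.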

How the results depend on the processing

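Over 13 settings the member median relative to all genes stayed negative, from -0.53 to -0.08, and 0 members passed the adjusted threshold in limma under any of the 12 that refit the model. The medians of complexes I, II and IV also kept their sign. That of complex III was -0.014 with quantile normalization, -0.068 with cyclic loess and -0.175 among genes above the median level, and from -0.587 to 0.086 with 1 array left out; that of complex V ranged from -0.533 to 0.006 with 1 array left out. The count of higher members was 2 with quantile normalization (Atp5l and Atp5l2), 1 with cyclic loess (Atp5l) and 0 to 3 with 1 array left out, the 3 being Atp5l, Atp5mpl and Uqcrq without wild-type replicate 1. The count of lower members was 5 without the intensity trend (with Ndufa10 and Atp5a1 added) and 1 to 3 with 1 array left out; without wild-type replicate 1 it was 1, Cox7a1. Cox7a1 was at an unadjusted p under 0.05 in every refit, while Cyc1 was lost in 4 (p from 0.0519 to 0.143) and Ndufv1 in 4 (p from 0.0523 to 0.147); none of these 3 changed sign. Centring the columns turned the sign of 16 members, and leaving out wild-type replicate 2 that of 24.

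The replicate number, which also separates pools from single outgrowths, was added as a block: 2 members were then lower, Cox7a1 and Ndufv1, and Cyc1 had an unadjusted p of 0.0528. Same-numbered arrays did not deviate together (correlation -0.09 across genes), and the labels name no shared litter or day, so same-numbered arrays are known to share only the number and whether outgrowths were pooled. Differences that end near background, as in Cox7a1, understate a change, and 9 members had a mean under the highest background value.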
